A study of Mus musculus with 6 samples.

Results

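The 43 genes described here act in the germline: in germ cell specification, in meiosis, in the piRNA pathway or in the testis. They were taken from 52636 genes counted in mouse embryoid bodies (EBs), aggregates in which embryonic stem cells (ESCs) begin to differentiate. The genes were chosen from results of the same comparison that is reported below, the measured difference in counts between WT and Tnfaip2-/- EBs. Their values are therefore a description, no p-value is given for them, and nothing is supported by how many of them differed. RNA was sequenced from 3 WT EB samples and 3 Tnfaip2-/- EB samples of the mouse ESC line E14. The Tnfaip2-/- line is a single clone in which CRISPR/Cas9 editing produced an early stop codon in Tnfaip2, a gene of the exocyst-related family, so that the effect of the genotype and of this clone cannot be told apart. ESCs were kept with leukemia inhibitory factor (LIF), formed EBs in hanging drops for 3 days, and were then plated on gelatin without LIF for another 3 days. The totals per sample lay between 21765931 and 23804489 counts. The samples of a genotype are described as biological replicates, and what separated them is not given in the sources used here, so the errors below measure the spread between these samples only.

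For Tnfaip2 itself, the 3 WT samples gave 7, 4 and 7 counts, whereas the Tnfaip2-/- samples gave 0, 2 and 2. The ratio of the summed counts, Tnfaip2-/- over WT and corrected for library size, was 0.228, with an exact 95% interval of 0.0561 to 0.692 that covers counting error only. The gene was below the expression filter in both genotypes, and its low level gives only a coarse check of the labels.

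Primordial germ cells arise from pluripotent cells under the control of factors such as PRDM1, and on reaching the gonad they activate genes such as Dazl and Ddx4. Stra8 is induced by retinoic acid and starts the meiotic programme, in which homologous chromosomes are held together by cohesin and the synaptonemal complex while they recombine. The piRNA pathway uses small RNAs bound to PIWI proteins to silence transposable elements in germ cells. In ESCs and somatic cells, many of these genes are kept silent by DNA methylation and by repressor complexes such as the one that contains E2F6.

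Promoters are shown for members with large differences and groups that did not overlap. No member was at least 2-fold lower in Tnfaip2-/- EBs, so those printed share a direction by this choice. Whether repressors act at these promoters here was not tested. RefSeq (GRCm38.p6) start sites were matched for 37 of the 43 members, and the 250 bases before the most upstream start site were read for each. The 6 windows printed belong to the members with the largest absolute log2 fold changes among those whose window held at most 30 annotated exon bases. The windows of Stra8 and Tdrd5 lay entirely in annotated exons and are not printed. The windows are chr6:18109062-18109311 (Asz1), chr7:24672051-24672300 (Tex101), chrX:134476491-134476740 (Taf7l), chr10:44458749-44458998 (Prdm1), chr8:84176553-84176802 (Nanos3) and chr17:50293621-50293870 (Dazl), all on the reverse strand. Those of Tex101, Prdm1 and Nanos3 lie inside the annotated span of their own gene but outside its exons. Capitals mark matches to CACGTG, an E-box, or to TCCCGC, the core of the E2F6 motif, on either strand.
Asz1: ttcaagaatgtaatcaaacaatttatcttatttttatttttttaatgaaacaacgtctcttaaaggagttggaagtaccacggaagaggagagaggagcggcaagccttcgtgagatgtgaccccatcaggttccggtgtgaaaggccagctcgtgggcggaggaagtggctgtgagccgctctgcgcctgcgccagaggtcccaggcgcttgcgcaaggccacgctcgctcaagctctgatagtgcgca
Tex101: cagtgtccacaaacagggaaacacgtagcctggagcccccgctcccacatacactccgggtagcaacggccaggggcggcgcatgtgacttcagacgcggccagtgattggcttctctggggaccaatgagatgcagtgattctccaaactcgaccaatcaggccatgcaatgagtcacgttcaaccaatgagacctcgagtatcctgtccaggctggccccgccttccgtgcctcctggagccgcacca
Taf7l: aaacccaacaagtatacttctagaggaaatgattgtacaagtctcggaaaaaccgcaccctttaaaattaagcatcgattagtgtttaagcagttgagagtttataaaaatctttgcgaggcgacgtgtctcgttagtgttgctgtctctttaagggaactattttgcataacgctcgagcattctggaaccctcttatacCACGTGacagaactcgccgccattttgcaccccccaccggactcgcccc
Prdm1: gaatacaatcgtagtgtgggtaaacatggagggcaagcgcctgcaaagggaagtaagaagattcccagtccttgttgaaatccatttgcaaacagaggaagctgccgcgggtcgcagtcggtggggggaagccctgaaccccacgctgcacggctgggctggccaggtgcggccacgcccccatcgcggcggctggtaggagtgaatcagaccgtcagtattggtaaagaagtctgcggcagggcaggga
Nanos3: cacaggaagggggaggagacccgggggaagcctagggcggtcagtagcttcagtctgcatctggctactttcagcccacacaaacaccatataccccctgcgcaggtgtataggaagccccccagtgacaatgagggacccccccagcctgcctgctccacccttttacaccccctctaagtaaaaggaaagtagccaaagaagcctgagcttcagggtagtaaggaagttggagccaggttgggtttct
Dazl: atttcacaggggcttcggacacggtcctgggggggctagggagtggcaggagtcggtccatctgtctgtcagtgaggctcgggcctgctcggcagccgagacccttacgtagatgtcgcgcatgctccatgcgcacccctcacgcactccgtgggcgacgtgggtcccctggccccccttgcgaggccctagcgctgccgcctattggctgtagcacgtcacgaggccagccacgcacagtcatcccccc

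Taf7l held the only match among these 6 windows, an E-box that begins 49 bases before the start site. Over all 37 windows, TCCCGC was found in 13 (35.1%) and CACGTG in 12 (32.4%), and 4 windows held both. Over the windows of all 27025 symbols, the shares were 16.9% and 6.04%. No match in a printed window overlapped another. Among the 15 windows of members that were at least 2-fold higher in Tnfaip2-/- EBs, TCCCGC was found in 4 (26.7%) and CACGTG in 2 (13.3%). Among the 21 windows of the other tested members, the counts were 9 (42.9%) and 10 (47.6%). A match describes the letters of a window, and binding was not measured.

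**Figure D1:**
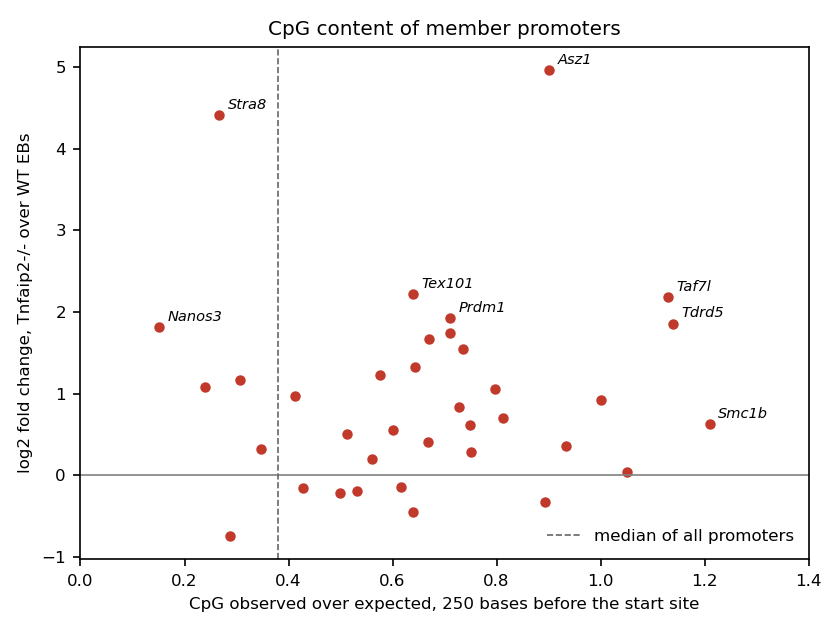
CpG observed over expected in the 250 bases before the start site (x axis) against the log2 fold change, Tnfaip2-/- over WT (y axis), for 36 members, with the median of all promoters dashed. The medians were 0.643 over the 37 member windows and 0.379 over all 27025 windows, and of the members at least 2-fold higher Nanos3 (0.151), Tdrd12 (0.240), Stra8 (0.267) and Sycp2 (0.307) lay below both. The Stra8 window lies entirely in exons and the Nanos3 window inside its gene.

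The CpG content of these windows, given as the observed number of CpG over the number that the base composition predicts, had a median of 0.643 in the members against 0.379 over all windows. It was 0.671 in the members at least 2-fold higher and 0.639 in the other tested members. The values ran from 0.151 in Nanos3 to 1.14 in Tdrd5 among the former and from 0.288 in Syce3 to 1.21 in Smc1b among the latter. The windows of Stra8, Tdrd5 and Stag3 lay entirely in annotated exons, that of Smc1b in part, and that of Nanos3 inside its gene. Their values may therefore not be those of a promoter.

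Of the 43 members, 41 passed the expression filter, and Mei1 and Tdrd6 did not. In 37 members the filter was passed in both genotypes. Asz1, Tex101 and Tdrd9 passed through the Tnfaip2-/- samples only, so that counts over the members that passed give no support for a direction. With edgeR's quasi-likelihood test and a threshold of 0.05 on the adjusted p, 29 members were called higher and 7 lower in Tnfaip2-/- EBs. Over all 17849 genes tested, 34.0% were called higher and 33.7% lower. At least 2-fold and called were 17 members, all higher, where 7.46% of all genes tested were called higher by this measure and 4.51% lower. The groups did not overlap in 37 of the 43 members, 30 higher and 7 lower, against 34.9% and 34.5% of all genes tested. The median log2 fold change of the tested members was 0.70, also with Asz1 placed at the lower limit of its interval, against 0.003 over all genes tested. Summed over all members except Dppa5a, expression was 478, 469.8 and 475 counts per 1000000 counts (CPM) in the WT EBs and 810.5, 807 and 809.8 CPM in the Tnfaip2-/- EBs. With Dppa5a, the single most abundant member, the sums were 1448 ± 38.3 against 1411 ± 15.1 CPM (SD, n = 3). In bulk RNA, a change in the share of cells that express a gene and a change of its RNA per cell cannot be told apart.

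**Figure D2:**
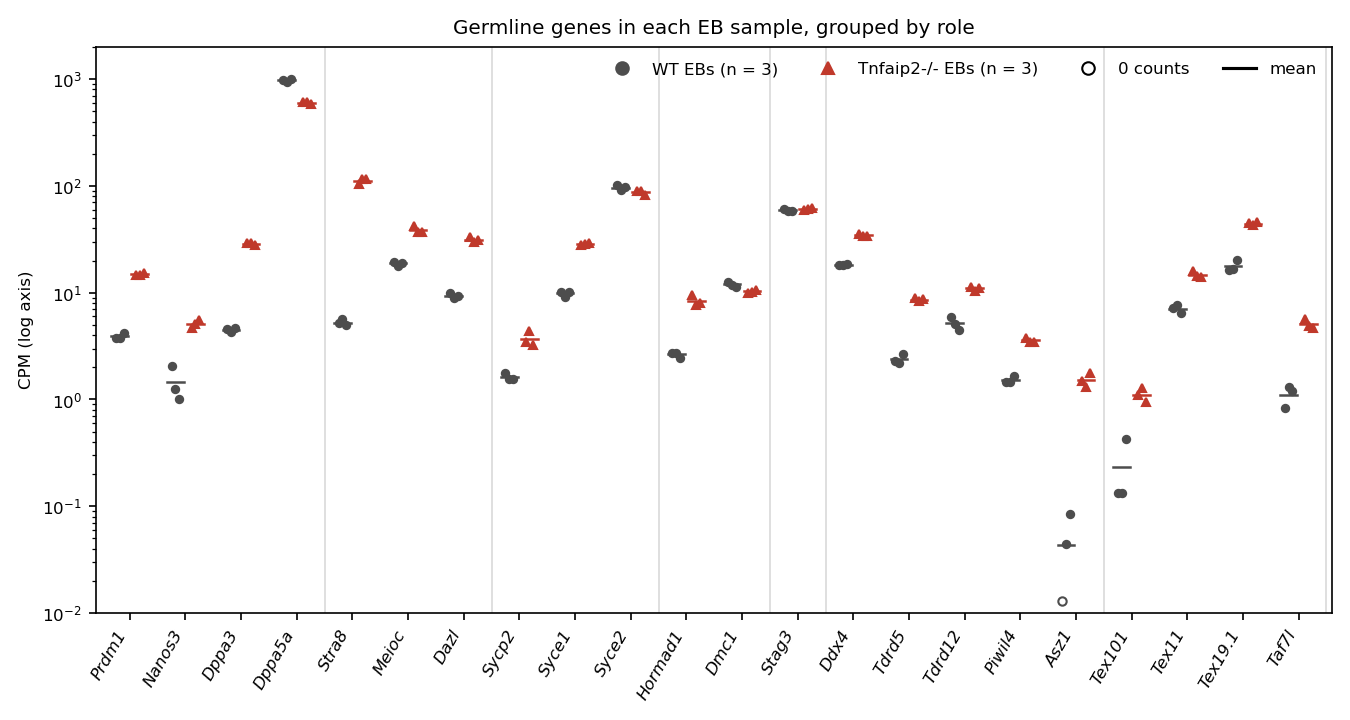
CPM of 22 members in each sample (log axis), WT circles and Tnfaip2-/- triangles, with horizontal lines at the mean of 3 samples and an open circle for 0 counts. Stra8 and Asz1 show the widest gaps between genotypes, whereas Dppa5a, Syce2 and Dmc1 were lower in the Tnfaip2-/- samples and Stag3 overlapped.

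Germ cell specification and survival genes diverged in direction. Dppa3, a maternal factor that protects methylation marks and is active in germ cells and naive pluripotency, had 104, 96 and 110 counts in WT EBs and 667, 645 and 614 in Tnfaip2-/- EBs. All Tnfaip2-/- samples lay far above all WT samples, at 28.8 ± 0.992 against 4.52 ± 0.206 CPM (SD, n = 3), and the log2 fold change was 2.67 (SE 0.0770). Of the 51-base windows in its exons, 15.8% also occur in another gene, mostly its pseudogene, and uniquely mapped reads cannot cover them. Prdm1, which encodes the repressor BLIMP1 that directs germ cell fate, had 86, 85 and 98 counts against 336, 321 and 336. Its levels were 3.92 ± 0.217 and 14.9 ± 0.256 CPM, a log2 fold change of 1.92 (SE 0.0914). Nanos3, which protects primordial germ cells from death, had 47, 28 and 24 counts in WT EBs and 105, 112 and 122 in Tnfaip2-/- EBs. The WT samples spread widely (1.45 ± 0.553 CPM), but all were below the Tnfaip2-/- samples (5.08 ± 0.441 CPM), with a log2 fold change of 1.81 (SE 0.167). Dppa5a, a pluripotency and germ cell RNA-binding protein and the most abundant member per kilobase of exon, went the other way. It had 22211, 20946 and 23589 counts in WT and 13806, 13454 and 12952 in Tnfaip2-/- EBs, 973 ± 34.8 against 602 ± 15.9 CPM and a log2 fold change of -0.69 (SE 0.0252), and 37.8% of its exon windows are shared with other genes. Kit, the receptor of stem cell factor, was higher (59.7 and 87.3 CPM) and Dnd1, an RNA-binding protein needed for germ cell survival, lower (15.4 and 9.85 CPM), each with groups that did not overlap.

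All 3 genes of meiotic entry and germ cell RNA binding were higher in Tnfaip2-/- EBs without overlap, as were 34.9% of all genes tested. Stra8, on chromosome 6 from 34920163 to 34939344 (GRCm38), had 117, 126 and 116 counts in WT EBs and 2381, 2509 and 2553 in Tnfaip2-/- EBs. The genotypes lay far apart in every sample, at 111 ± 5.81 against 5.24 ± 0.352 CPM (SD, n = 3). The log2 fold change was 4.41 (SE 0.0598, 21.3-fold), and 10 of the 17849 genes tested had a larger one. Dazl, which encodes an RNA-binding protein that licenses germ cells for sexual differentiation, had 227, 200 and 217 counts against 753, 650 and 693. Its levels were 9.39 ± 0.559 and 31.4 ± 1.73 CPM, a log2 fold change of 1.74 (SE 0.0663). Meioc, whose product keeps cells in meiotic prophase, had 440, 401 and 448 counts against 955, 818 and 829 and a log2 fold change of 1.05 (SE 0.0559). Per kilobase of exon, Stra8 was at 61.8 CPM in Tnfaip2-/- EBs, above Dazl (8.21) and Meioc (8.43), while in WT EBs the 3 genes lay between 2.46 and 4.07.

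Genes of the synaptonemal complex, the protein scaffold between paired chromosomes, did not share a direction. Syce1, a central element protein, had 230, 206 and 240 counts in WT EBs and 637, 630 and 653 in Tnfaip2-/- EBs, 9.85 ± 0.568 against 28.7 ± 0.705 CPM and a log2 fold change of 1.54 (SE 0.0649). Sycp2, an axis component, had 40, 35 and 37 counts against 79, 95 and 72, with a log2 fold change of 1.17 (SE 0.163). Syce2, the most abundant per kilobase, was slightly lower: 2278, 2043 and 2295 counts in WT EBs and 2030, 1958 and 1834 in Tnfaip2-/- EBs, which gave a log2 fold change of -0.15 (SE 0.0366). Lower values without overlap were found as well for Sycp1, Sycp3 and Syce3, whose log2 fold changes were -0.33, -0.45 and -0.74. Sycp3 shares 52.2% of its exon bases with Chpt1 (12.3 and 11 CPM) on the opposite strand, and the libraries did not mark strand. How reads in shared bases were counted is not stated for these samples. Such reads may have been lost for Sycp3, or its counts may include reads of Chpt1.

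Among the tested axis and recombination genes, Hormad1 showed the largest difference. Hormad1, a chromosome axis protein, had 62, 61 and 58 counts in WT EBs and 218, 167 and 177 in Tnfaip2-/- EBs. The levels of 2.64 ± 0.151 and 8.4 ± 1.05 CPM did not overlap and gave a log2 fold change of 1.67 (SE 0.121), and 22.3% of its exon windows are shared, mostly with a pseudogene. Dmc1, the meiotic recombinase and the most abundant of the group per kilobase in WT EBs, had 287, 261 and 269 counts against 228, 223 and 236, a log2 fold change of -0.21 (SE 0.0779). Hormad2 and Zcwpw1 were higher without overlap (log2 fold changes of 0.97 and 0.36). In Mei4 (44, 37 and 38 counts against 52, 43 and 38) and Msh4 (3, 9 and 11 against 11, 13 and 4) the groups overlapped, as in Mei1, which had 10, 9 and 10 counts in WT EBs and 19, 18 and 5 in Tnfaip2-/- EBs.

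Among meiotic cohesin genes, Stag3 was the most abundant and overlapped between genotypes, with 1382, 1298 and 1362 counts in WT EBs and 1354, 1341 and 1364 in Tnfaip2-/- EBs (59.0 ± 1.74 and 60.8 ± 1.03 CPM). The cohesin subunits Smc1b and Rec8 were higher without overlap, with log2 fold changes of 0.63 (SE 0.0999) and 0.50 (SE 0.0576).

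In the piRNA pathway and nuage, the granules where piRNAs are made, 9 of 11 members had higher levels in every Tnfaip2-/- sample than in any WT sample, where 34.9% of all genes tested did, and Tdrd1 and Tdrd9 overlapped. The 9 include Tdrd6, which was not tested, and Asz1, which passed the filter through the Tnfaip2-/- samples only. Ddx4, the RNA helicase VASA and the most abundant of the group per kilobase in Tnfaip2-/- EBs, had 413, 405 and 440 counts against 813, 750 and 751. Its levels of 18.3 ± 0.338 and 34.6 ± 1.02 CPM gave a log2 fold change of 0.92 (SE 0.0539). Tdrd5, a Tudor protein of the nuage, had 52, 49 and 62 counts in WT EBs against 202, 182 and 192, with a log2 fold change of 1.86 (SE 0.118). For the PIWI protein gene Piwil4 the counts were 33, 33 and 39 against 86, 76 and 77, and for Tdrd12 135, 114 and 106 against 258, 227 and 246, with log2 fold changes of 1.22 (SE 0.161) and 1.08 (SE 0.0968). Mov10l1, Piwil2 and Mael were higher by less, with log2 fold changes of 0.61, 0.36 and 0.28.

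Asz1, which encodes a mitochondrial protein needed for piRNA production, was almost absent from WT EBs, with 0, 1 and 2 counts, and reached 34, 29 and 39 counts in Tnfaip2-/- EBs. All WT samples were at or under the floor of 3 counts, which corresponds to between 0.128 and 0.137 CPM in a sample. The ratio of summed counts was 34.9, with an exact 95% interval of 11.6 to 172 for counting error. The fitted log2 fold change of 4.96 depends on these few WT counts and was 4.42 without WT replicate 1 and 5.78 without WT replicate 3. Tdrd6 was low in both genotypes, at 2, 0 and 3 counts against 7, 8 and 4, a ratio of summed counts of 3.90 (interval 1.41 to 13.4).

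All 7 other testis or germline genes, chosen from this same contrast, were higher in Tnfaip2-/- EBs without overlap, as were 34.9% of all genes tested. Tex101, a germ cell surface protein, had 3, 3 and 10 counts in WT EBs and 25, 28 and 21 in Tnfaip2-/- EBs. Its log2 fold change was 2.22 (SE 0.356) and 2.99 without WT replicate 3, the sample with 10 counts. Taf7l, an X-linked paralog of a general transcription factor subunit used in testis, had 19, 29 and 28 counts against 129, 106 and 103, a log2 fold change of 2.18 (SE 0.168). Tex19.1, which limits transposable elements in germ cells and was the most abundant of the group per kilobase, had 367, 371 and 476 counts against 1011, 934 and 1015, with a log2 fold change of 1.32 (SE 0.0582). The meiotic gene Tex11, also on the X chromosome, had 163, 170 and 153 counts against 360, 314 and 309, a log2 fold change of 1.05 (SE 0.0833). Tex14, Slc25a31 and Brdt had log2 fold changes of 0.83, 0.70 and 0.41, and that of Brdt was 0.24 without WT replicate 3.

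**Figure D3:**
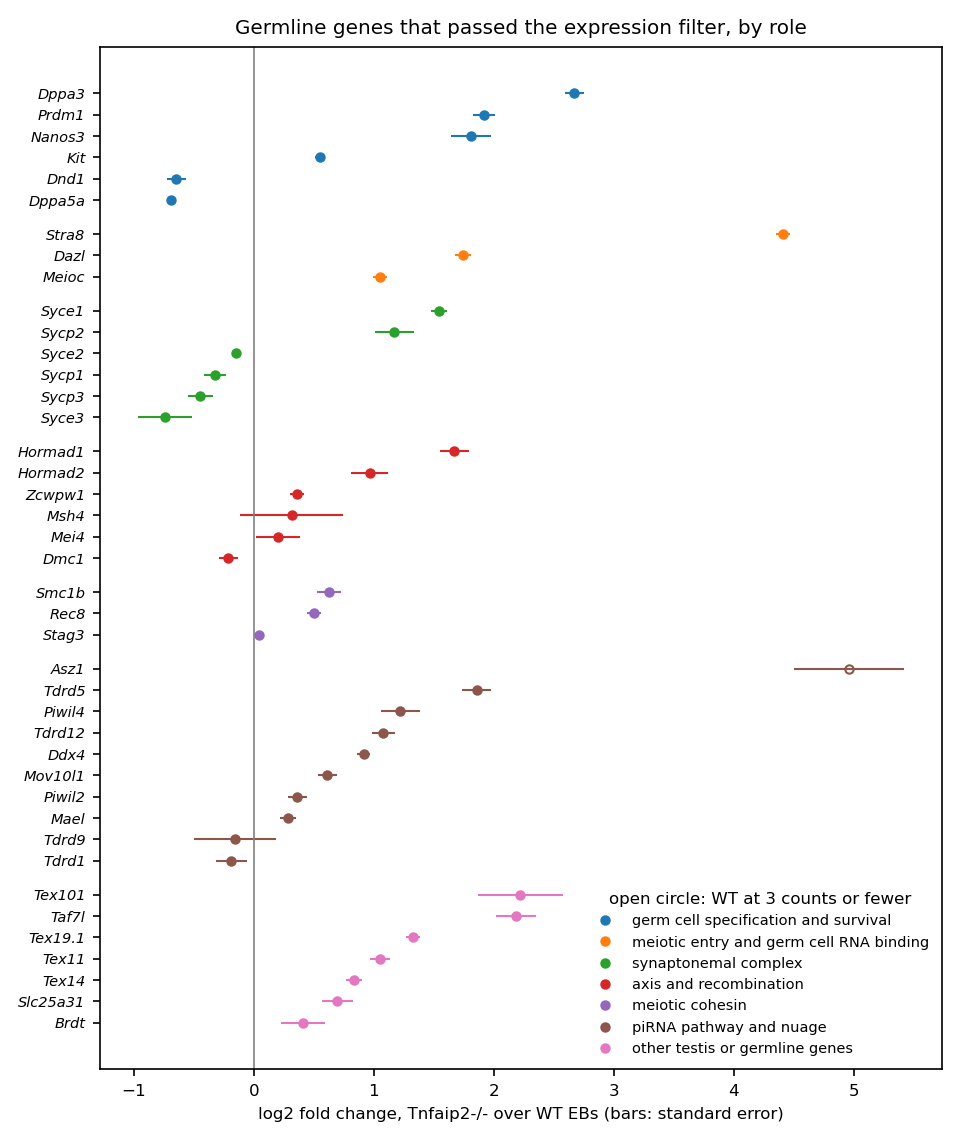
Log2 fold change, Tnfaip2-/- over WT, of the 41 members that passed the expression filter, by role, with bars at the standard error and an open circle for Asz1, whose WT samples had 3 counts or fewer. Values ran from -0.74 (Syce3) to 4.41 (Stra8) and 4.96 (Asz1), and the synaptonemal complex held values on both sides of 0.

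Genes of the same processes outside the 43 members were taken from lists of other meiosis genes, other piRNA pathway genes and other germ cell genes. These and the lists below were chosen with earlier results of these data known. Their counts and p-values therefore give no independent support. The genes were tested with all genes, of which 34.0% rose and 33.7% fell, with a median log2 fold change of 0.003. Of 37 other meiosis genes, 31 were tested, 14 rose and 3 fell in Tnfaip2-/- EBs at an adjusted p below 0.05 (edgeR's quasi-likelihood test, Benjamini-Hochberg), with a median log2 fold change of 0.29, which was 0.44 with no filter on low counts. Of the 14 that rose, 5 passed the filter through the Tnfaip2-/- samples only (Ccna1, Terb1, Tex12, Ankrd31 and Mcmdc2), so that the count gives no support for a direction. Without WT replicate 1 or without WT replicate 2, 5 genes fell. Ccna1, a cyclin of male meiosis (log2 fold change 2.1, adjusted p = 3.43e-08), Terb1, a telomere attachment protein (2.06, adjusted p = 1.39e-08), and Rec114, needed for meiotic breaks (1.89, adjusted p = 3.42e-24), rose most by edgeR's test. Rec114 had 109, 99 and 136 counts in WT and 419, 414 and 412 in Tnfaip2-/- EBs. It shares 26.9% of its exon bases with Nptn on the opposite strand, which itself went from 65.8 to 134 CPM. Reads in the shared bases may have been lost, or the difference of Rec114 may hold reads of Nptn. Psmc3ip, Iho1 and Six6os1 fell, with log2 fold changes of -0.52 (adjusted p = 7.90e-11), -0.32 (adjusted p = 0.0195) and -0.29 (adjusted p = 2.95e-05) in edgeR's test, and Iho1 lost the call with DESeq2 and without Tnfaip2-/- replicate 3, where its log2 fold change was -0.21. Psmc3ip shares 21.2% of its exon bases with Mlx on the opposite strand (31.1 and 29.8 CPM). Mnd1, the most abundant per kilobase, of whose exon windows 40.0% are shared with other genes, had a log2 fold change of -0.10 (SE 0.0533, adjusted p = 0.0785 in edgeR's test) and passed the threshold without WT replicate 1 or 2 (-0.14 and -0.13).

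Of 23 other piRNA pathway genes, 22 were matched and 19 tested. In edgeR's test 12 rose and 5 fell, against 34.0% and 33.7% of all genes tested, with a median log2 fold change of 0.33, which was 0.55 with no filter on low counts. Tex19.2, a paralog of Tex19.1, had 16, 20 and 21 counts in WT EBs and 97, 76 and 78 in Tnfaip2-/- EBs (log2 fold change 2.17, adjusted p = 4.90e-14 from edgeR). Rnf17, a Tudor protein of germ granules, had 317, 355 and 376 counts against 1239, 1155 and 1058 (1.76, adjusted p = 9.99e-30 from edgeR), and Tdrd7 followed with 1.22 (adjusted p = 4.70e-13). Dnmt3c, a DNA methyltransferase that silences young transposable elements in male germ cells, fell to 2.06 ± 0.389 CPM from 6.69 ± 0.265 in WT EBs (log2 fold change -1.69, adjusted p = 1.96e-15 from edgeR), and 23.2% of its exon windows are shared with other genes. Tdrkh and Pnldc1, which act in piRNA trimming, fell by less (-0.52 and -0.35), and Tdrkh shares 36.7% of its exon bases with Oaz3 on the opposite strand. Dnmt3l, the most abundant per kilobase, rose from 63.6 to 77.7 CPM (0.29, adjusted p = 1.17e-09).

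Of 35 other germ cell genes, 27 were tested, of which 20 rose and 5 fell, against 34.0% and 33.7% of all genes tested, with a median log2 fold change of 1.03. Of the 20, Boll and Ctcfl passed the filter through the Tnfaip2-/- samples only. Tfap2c, a transcription factor of primordial germ cell specification, had 512, 459 and 515 counts in WT EBs and 3921, 3708 and 3801 in Tnfaip2-/- EBs, 21.7 ± 1.07 against 171 ± 1.65 CPM (log2 fold change 2.98, adjusted p = 2.39e-45 from edgeR). The X-linked homeobox genes Rhox6 and Rhox9 had 11, 11 and 15 and 14, 12 and 15 counts in WT EBs, and 163, 225 and 175 and 210, 207 and 195 in Tnfaip2-/- EBs. Their log2 fold changes were 3.95 and 3.92 (adjusted p = 2.80e-23 and 5.48e-26 from edgeR). Of the exon windows of Rhox6, 16.4% are shared with other genes. Tcl1, Zbtb16 and Ifitm3 fell, with log2 fold changes of -1.82, -1.09 and -0.59 (adjusted p = 3.42e-20, 0.00164 and 1.09e-17 from edgeR), and Zbtb16 passed the filter through the WT samples only. Utf1, the most abundant per kilobase, differed little (324 and 309.7 CPM, log2 fold change -0.06, adjusted p = 0.0465 from edgeR), with groups that overlapped, and lost the call under several alternatives.

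**Figure D4:**
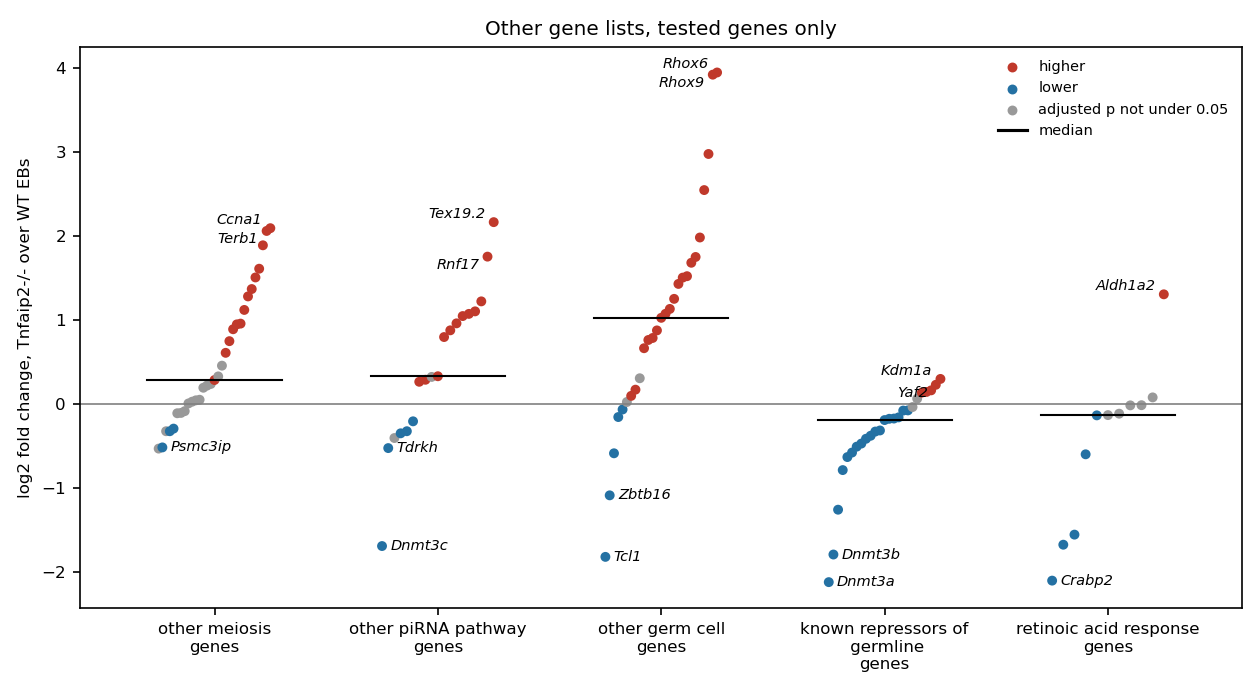
Log2 fold change, Tnfaip2-/- over WT, of the tested genes in 5 lists of other genes, each dot a gene, red for higher and blue for lower at an adjusted p below 0.05, with the median as a line. Other germ cell genes had a median of 1.03 and known repressors a median of -0.19, with Dnmt3a and Dnmt3b the lowest repressors at -2.12 and -1.79.

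Of 25 known repressors of germline genes, 18 fell and 5 rose in edgeR's test, with a median log2 fold change of -0.19, where 33.7% of all genes tested fell and 34.0% rose. The de novo DNA methyltransferase genes fell most. Dnmt3a had 14564, 14583 and 14778 counts in WT EBs and 3296, 3159 and 3384 in Tnfaip2-/- EBs, and its log2 fold change was -2.12 (SE 0.0271, adjusted p = 8.25e-46 from edgeR). Dnmt3b had 13515, 13447 and 14060 counts against 4047, 3732 and 3770, a log2 fold change of -1.79 (SE 0.0260, adjusted p = 7.60e-44 from edgeR). Zfp57 was listed here although its known role is to maintain methylation at imprinted loci. It fell to 111 ± 0.671 CPM from 265 ± 1.55 in WT EBs (log2 fold change -1.26, adjusted p = 2.49e-36 from edgeR). The 3 genes that rose most were Kdm1a, Yaf2 and Trim28, by 0.30, 0.23 and 0.16 on the log2 scale, and Trim28 was the most abundant repressor per kilobase. Whether the lower levels of repressors have a part in the levels of the germline genes was not tested.

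Of 11 retinoic acid response genes, 1 rose, Aldh1a2 (log2 fold change 1.31, adjusted p = 5.50e-07 from edgeR), and 5 fell, against 34.0% and 33.7% of all genes tested, with a median log2 fold change of -0.13. Crabp2 had a log2 fold change of -2.1, and Cyp26b1, a retinoic acid degrading enzyme, had -1.56 (adjusted p = 2.50e-04) and passed the filter through the WT samples only. Rarg, a receptor and the most abundant per kilobase, had a log2 fold change of -0.13. Dhrs3 and Cyp26a1, direct targets of retinoic acid signalling that were picked out after their values were seen, had log2 fold changes of -0.013 and -0.015 and did not pass the test.

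Pluripotency markers were abundant in both genotypes, as in ESC-derived cells: all 8 were detected, with summed levels of 2308, 2308 and 2332 CPM in WT EBs and 2149, 2125 and 2129.9 in Tnfaip2-/- EBs. Of the 8 markers, 4 rose and 4 fell in Tnfaip2-/- EBs, where 34.0% of all genes tested rose and 33.7% fell. Pou5f1, the most abundant per kilobase in WT EBs, fell (log2 fold change -0.86, adjusted p = 1.60e-32 from edgeR). Fgf4, Esrrb and Tdgf1 fell as well (-0.65, -0.48 and -0.17). Zfp42, the most abundant per kilobase in Tnfaip2-/- EBs, rose (0.90, adjusted p = 1.92e-31 from edgeR), as did Tfcp2l1, Nanog and Sox2 (0.52, 0.26 and 0.23). Markers of 2-cell-like cells, a rare state of ESC cultures, were higher in Tnfaip2-/- EBs. Their sums were 4.77, 5.0 and 4.38 CPM against 27.8, 30.5 and 29.6, all 7 tested of 8 rose (34.0% of all genes tested did), 3 of which passed the filter through the Tnfaip2-/- samples only, and the most abundant was Zscan4f, of whose exon windows 86.6% are shared with paralogs. Spermatid markers were near 0: Prm1, Prm2 and Smcp had no count in any sample, and the list summed to 0.161 ± 0.0945 CPM in WT and 1.02 ± 0.274 in Tnfaip2-/- EBs, mostly Spem1 (2, 4 and 2 against 15, 20 and 18 counts). Somatic gonad markers summed to 14.9 ± 1.24 and 15.8 ± 0.536 CPM, mostly Gata4, which also marks endoderm, and Star, and Fshr had no count. Of the 9, 2 were higher in every Tnfaip2-/- sample than in any WT sample, where 34.9% of all genes tested were, and both lay below the filter. Dhh had 1, 0 and 1 counts against 13, 5 and 8 (ratio of summed counts 13.3, interval 3.34 to 116), and Insl3 had 3, 2 and 1 against 13, 11 and 8 (ratio 5.47, interval 2.26 to 16.0). Of the exon bases of Insl3, 64.8% lie in Jak3 on the same strand, which went from 11.2 to 33.2 CPM. Reads of Insl3 may have been lost there, or its counts may hold reads of Jak3. Of the exon bases of Dhh, 25.2% lie in a gene on the opposite strand. Primitive endoderm markers summed to 72.3 and 66.2 CPM with Dab2 the most abundant, and 2 of the 7 rose and 3 fell, against 34.0% and 33.7% of all genes tested. Of the 2, Sox17 (log2 fold change 0.45) lost the call with DESeq2, without WT replicate 3 (0.25) and without Tnfaip2-/- replicate 3 (0.32). Trophoblast markers summed to 32.2 and 24.9 CPM with Tpbpa at 0, and single genes moved in opposite directions. Eomes, the most abundant, fell (log2 fold change -0.62), and Cdx2, which passed the filter through the WT samples only, had 42, 37 and 28 counts against 1, 2 and 0 (ratio of summed counts 0.0288, interval 0.00584 to 0.0864). Ascl2 and Hand1 rose (log2 fold changes of 1.54 and 1.75), Hand1 through the Tnfaip2-/- samples only. Fibroblast markers summed to 13.1 and 11.6 CPM, with Thy1 the most abundant per kilobase. Of the 5 tested, 1 rose and 2 fell, against 34.0% and 33.7% of all genes tested. Those that fell, Col1a2 and Col3a1, passed the filter through the WT samples only. Col1a2 had 38, 36 and 43 counts against 9, 14 and 17, and Col3a1 12, 21 and 12 against 1, 1 and 0. Col1a1 did not pass the test (log2 fold change -0.04). Dcn, which was not tested, had 8, 8 and 9 counts against 1, 0 and 0, and Pdgfrb rose (log2 fold change 0.36) and lost the call with DESeq2. The part of 2-cell-like or other cells in the germline values was not tested.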

How the data were processed

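RNA of 6 EB samples was sequenced with an unstranded kit (TruSeq RNA v2). The authors mapped the reads to GRCm38 with TopHat2 2.1.0, counted uniquely mapped reads per gene of Ensembl release 90 with featureCounts 1.5.0 and deposited these counts without normalization. Members and lists were chosen with earlier results of these data known. Counts of 3 WT and 3 Tnfaip2-/- samples were compared in R 4.3.3 with edgeR 4.0.16 (TMM normalization, filterByExpr, quasi-likelihood F test) across all genes tested, and p-values were adjusted by Benjamini-Hochberg (threshold 0.05). The test was checked on drawn counts with known changes. CPM values use the TMM library sizes, and standard errors come from the test statistic. Levels are compared between genes per kilobase of exon in GENCODE M21, which differs from the release used for counting. Gene symbols were matched for 52403 of 52636 IDs, and Tdrd15 was not matched. Members with a mean of at least 0.5 CPM and an absolute log2 fold change of at least 1, or the most abundant of a role, are given in full. In other lists, up to 3 higher and 3 lower genes and the most abundant are named. One gene counted in the retinoic acid list is not reported here. The alternatives were 2 other normalizations, 2 filters, DESeq2 1.42.0, a fold threshold, another form of the fit, a replicate block and leaving out each sample.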

Additional observations from a re-analysis of the deposited data

How the results depend on the processing

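Across 14 alternatives, 130 of 140 counts of called genes stayed within 1.5 times the reported count. The numbers moved most when the test asked for a change beyond 1.5-fold: 1615 genes were higher and 1183 lower over all genes tested, 0 other meiosis genes were lower, 7 other piRNA pathway genes were higher and 1 lower, and 1 other germ cell gene was lower. For the members this test was chosen after seeing the data, and it called 20 higher and 1 lower. With the stricter filter, 3 other germ cell genes were lower. When each sample was left out in turn, between 2 and 5 other meiosis genes were lower, and the cause was not tested. Of 530 alternative log2 fold changes of the 41 tested members, 527 differed from the reported value by less than 1 SD of the replicates, and the other 3 are those of Asz1 and Tex101 given above. No member called higher or lower changed sign. Besides the test beyond 1.5-fold, Brdt lost its call in 7 alternatives (log2 fold changes of 0.24 to 0.45), Dmc1 with DESeq2 and without WT replicate 1 (-0.22 and -0.18) and Syce3 without WT replicate 3 (-0.56), and Tex101 was not tested with the stricter filter. Tdrd6 gained a call with no filter, Mei1 without Tnfaip2-/- replicate 3 and Tdrd1, as lower, without Tnfaip2-/- replicate 1. Of 52 alternative medians, 7 moved by more than 1 SD: the members' median was 0.77 with the stricter filter and 0.61 without WT replicate 2, and with no filter, which adds genes of low counts, those of other meiosis and other piRNA pathway genes were 0.44 and 0.55. The median of other piRNA pathway genes was 0.44 without WT replicate 3 and 0.41 without Tnfaip2-/- replicate 2, and that of other germ cell genes 1.14 without WT replicate 3. Of 778 alternative values of other named genes, 36 lost the call and 2 gained it, and no gene that was called changed sign.

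The replicate numbers did not pair the samples: the correlations of same-numbered deviations were -0.103, -0.0972 and -0.0829 across genes, and no sample correlated best with its own number. When this number entered as a replicate block, 5937 genes were higher and 5904 lower, 29 members were called higher and 7 lower, the members called without it.

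Levels near the floor of 3 counts are limited by depth. Each genotype is 1 line, the members were chosen from the same contrast, and overlapping or copied genes can share or lose reads.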
